A study of Mus musculus with 4 samples.

Results

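Solute carriers are the membrane proteins that move nutrients, ions, metals, cofactors and metabolites across the plasma membrane and the membranes of organelles, and their genes carry Slc symbols with a family number. The genes described here are those whose symbol follows the pattern Slc, family number, letter and member number, with a mean over the 4 libraries of at least 5 CPM (the count of a gene scaled to the same total in every library). Of 365 symbols that matched the pattern in a table of 45706 genes, 5 (Slc2a1, Slc2a3, Slc16a1, Slc16a3 and Slc22a18) were left out by name, 186 lay under the limit and 174 in 43 families were kept. The choice used the mean over all libraries and not the difference between groups. A gene under the limit in a group can still be kept through the other group. Of the members that pass the test below, Slc44a3 was under it at 0 h and Slc45a3 at 24 h. Just inside the limit were Slc25a53 at 5.31 CPM and Slc37a1 at 5.39, and just outside it were Slc25a14 at 4.60 and Slc35b3 at 4.57.

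Messenger RNA was sequenced in V6.5 mouse embryonic stem cells, an established line, in 2 libraries at 0 h and 2 at 24 h, called replicates A and B. The labels call the 0 h cells KLF wild type and the 24 h cells KLF knockout. The lines were picked as clones after infection with a lentivirus that carried a doxycycline-inducible Cas9 and guide RNAs for Klf4 only or for Klf2, Klf4 and Klf5 in 1 vector, and doxycycline was given for 24 h. Titles of the 24 h libraries name a knockout of KLF4, and all titles carry the letters TKO, so the guides of each library are uncertain. All cells grew on irradiated feeders in serum medium with LIF and inhibitors of MEK and GSK3. Time, doxycycline, the cutting of DNA and any loss of KLF proteins differ together between the groups and cannot be told apart.

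Transporters of the plasma membrane decide which amino acids, sugars and ions a cell takes up. Those of mitochondria, peroxisomes, the endoplasmic reticulum (ER), the Golgi and lysosomes pass substrates between compartments. Embryonic stem cells depend on amino acid uptake and on one-carbon metabolism, and heteromeric amino acid transporters pair the heavy chain Slc3a2 with a light chain such as Slc7a5.

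Libraries held 46031578 to 52412844 counts. The transcripts of Klf2, Klf4 and Klf5 did not pass the test below, and since Cas9 cuts can leave an altered transcript in place, they check no label. All 8 stem cell markers on a fixed list were detected, and 3 of them (Pou5f1, Utf1 and Zfp42) fell at 24 h. They summed to 4460 and 4370 CPM at 0 h and 3900 and 3960 at 24 h, without overlap. The 12 fibroblast markers, which feeders could supply, summed to 230.0 and 163.0 CPM at 0 h and 183.0 and 178.0 at 24 h, so the groups overlapped, and 1 of them (Pdgfrb) fell. No marker was at 0, and the part of these markers in the results was not tested. The 6 primitive endoderm markers summed to 15.6 to 19.9 CPM, with groups that overlapped. The 6 trophectoderm markers summed to 167.0 and 138.0 CPM at 0 h and 180.0 and 178.0 at 24 h. The 5 neural markers summed to 62.8 and 57.2 CPM and then 54.9 and 55.4. The groups did not overlap in these last sums, and 0 markers passed the test in each of the lists for primitive endoderm, trophectoderm and neural cells. The 0 h replicate A stood apart by GC content: its deviation from the mean library correlated with it over 13000 genes (r = 0.622, against -0.355 to -0.259 in the other libraries).

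Of the 174 solute carriers, 11 rose and 6 fell at 24 h, and 157 did not pass. The rises were led by the fatty acid transporter Slc27a2 (log2 fold change 1.72) and the organic ion family member Slc22a23 (1.40), and the falls by the vesicular ATP transporter Slc17a9 (-1.07). The test was edgeR's quasi-likelihood test over all 18005 genes that passed a filter on low counts, with p-values adjusted by Benjamini-Hochberg and called under 0.05. All 174 members passed that filter. Levels from here on are CPM of library totals scaled by edgeR's TMM method, and TPM where named. Called members made up 9.77% of the list, beside 6.8% of all genes tested and 7.05% of the 11308 genes tested with a mean of at least 5 CPM. By direction, 6.32% of the members rose and 3.45% fell, beside 4.15% and 2.65% of all genes tested and 3.94% and 3.11% of those of at least 5 CPM. In RNA from whole cultures, fewer cells of a type and less RNA per cell cannot be told apart.

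The median log2 fold change of the members was -0.02, beside -0.01 over all genes tested, and 147 of the 174 members lay within 0.5 of 0. At an unadjusted p under 0.05 there were 64 members (36.8%), 35 higher and 29 lower, beside 25.8% of all genes tested. Levels in the 2 groups did not overlap for 112 members (64.4%), beside 58.8% of all genes tested and 61.6% of those of at least 5 CPM. The 24 h libraries were the higher in 59 of the 174 members (33.9%) and the lower in 53 (30.5%), beside 27.3% and 34.3% of the genes of at least 5 CPM. The count of members called depended on the libraries: 54 rose and 33 fell when 0 h replicate A was left out, 47 and 66 when 0 h B was, 4 and 2 when 24 h A was, and 3 and 2 when 24 h B was. The same 4 refits called 32.2%, 50.2%, 3.02% and 2.71% of all genes tested, beside 87, 113, 6 and 5 of the 174 members. Each such fit leaves a group with a single library, whose spread is then taken to equal that of the other group.

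**Figure D1:**
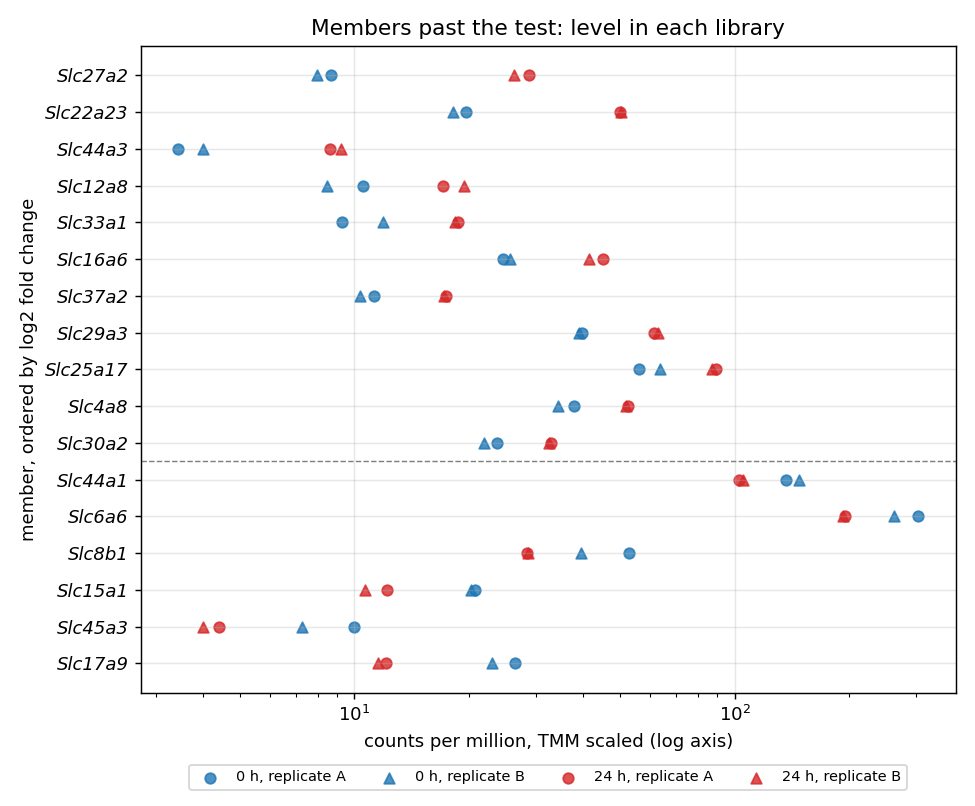
Level of the 17 members past edgeR's test in each library, in CPM on a log axis, with 0 h libraries in blue, 24 h libraries in red, replicate A as circles and replicate B as triangles. Members above the dashed line rose and members below it fell, and in none of the 17 do the blue and red points overlap.

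The spread between replicates was wider at 0 h than at 24 h. The median absolute log2 ratio of replicate A to B over the 174 members was 0.216 at 0 h and 0.0665 at 24 h, and 54 members differed by more than 1.25-fold between the 0 h libraries, against 5 between the 24 h libraries. Over the 11308 genes tested with a mean of at least 5 CPM, that median was 0.223 at 0 h and 0.0575 at 24 h. Of those genes, 3635 differed by more than 1.25-fold at 0 h and 136 at 24 h. The 0 h replicate A was the highest of the 4 libraries for 78 members. This followed GC content: among the 58 members of lowest GC content (38.8 to 48.3%) the median log2 ratio of 0 h A to B was -0.15, in the middle 58 it was 0.14, and among the 58 of highest GC content (53.9 to 60.9%) it was 0.36. Their median log2 fold changes at 24 h ran the other way, at 0.11, -0.01 and -0.20. With a smooth trend in GC content and length removed from each library, these medians were 0.01, 0.03 and 0.02. Such a fit brings medians by GC content near 0 whatever the source of the trend, and that source was not tested. In that fit 39 members rose and 23 fell (35.6% of the members, beside 23.7% of all genes tested), and all 17 were among them in the same direction.

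**Figure D2:**
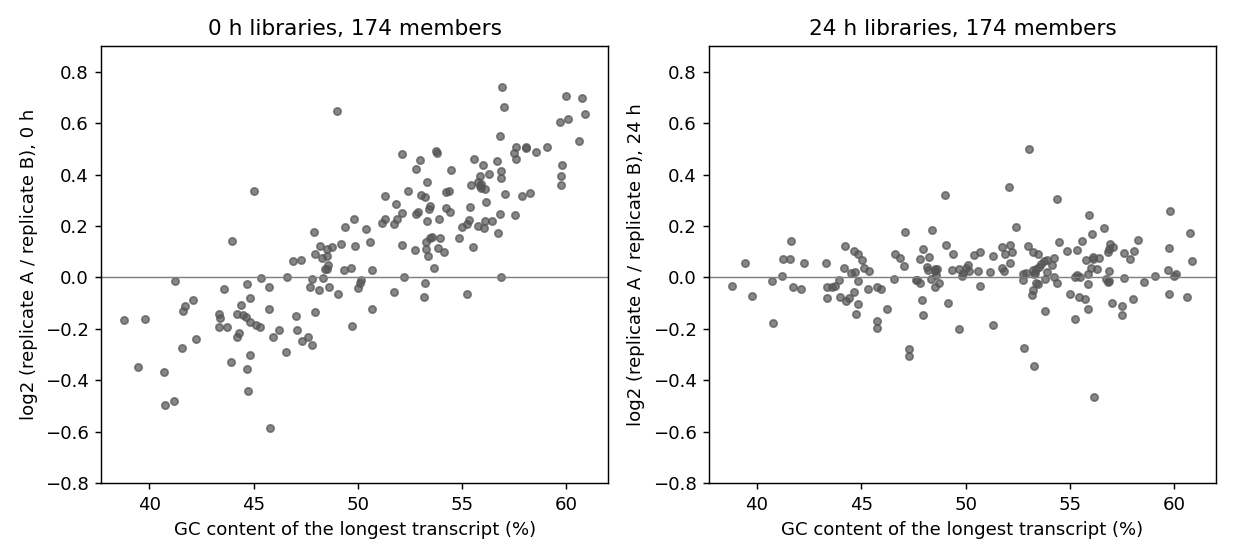
Log2 ratio of replicate A to replicate B against the GC content of the longest transcript (%), for the 174 members at 0 h (left) and 24 h (right), 1 point a member. The 0 h ratios climb with GC content, from a median of -0.15 in the 58 members of lowest GC content to 0.36 in the 58 of highest, while the 24 h ratios stay near 0.

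Family numbers were put in 8 classes by the usual substrate of the family. Members past the test were spread over all 8 classes, from 1 of 32 mitochondrial carriers to 3 of 13 carriers of lipids, vesicular substrates and organic ions. Class medians of the log2 fold change lay between -0.06 and 0.09, except for sugar, monocarboxylate and inositol transporters at 0.33. That class lacks Slc2a1, Slc2a3, Slc16a1 and Slc16a3, which were left out by name. Its families 5, 16 and 50 had medians of 0.35, 0.39 and 0.27. Family 2, with Slc2a8 only, was at -0.55 and family 45 at -0.59. With library size in place of TMM scaling, the median of all genes moved to 0.05 and the medians of the amino acid (0.00), metal (0.01) and vitamin (0.00) classes moved to about 0. With the same change the mitochondrial median was -0.004 and that of the sugar class 0.38. When 0 h replicate A was left out, the amino acid median was 0.07 and the vitamin median 0.06, and when 0 h B was, the ion median was -0.02 and that of lipids and organic ions -0.19. Leaving out 24 h A gave -0.10 for the latter. The mitochondrial median stayed negative, and the sugar and nucleotide sugar medians positive, in every refit.

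**Figure D3:**
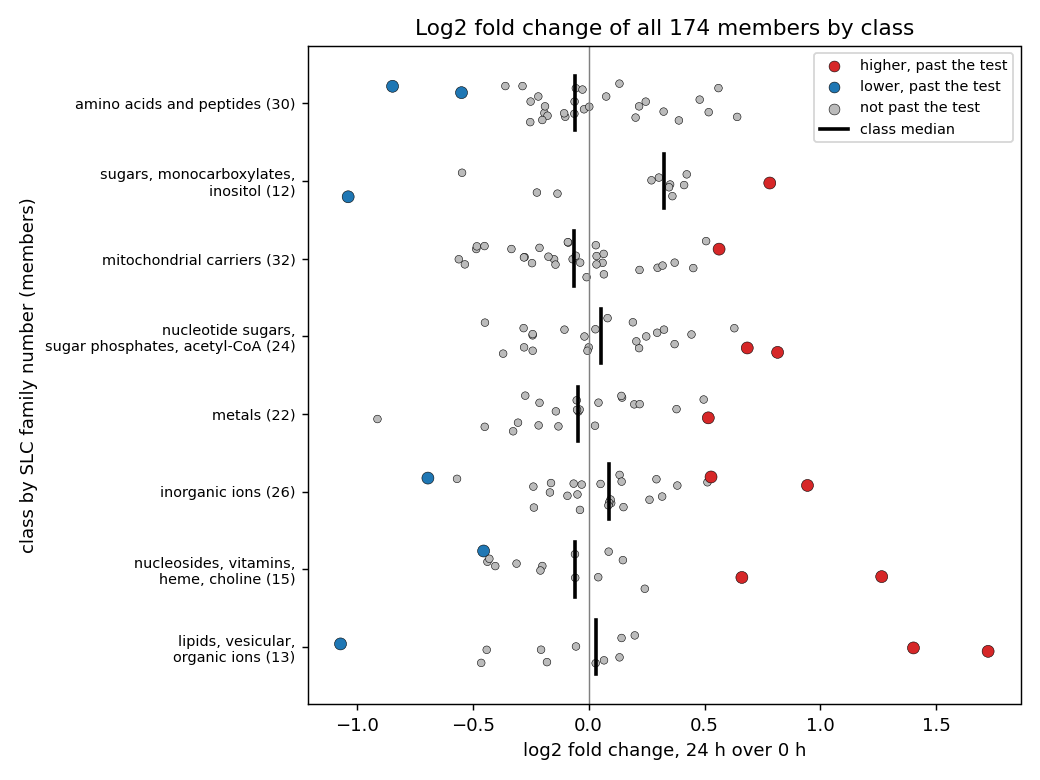
Log2 fold change (24 h over 0 h) of each of the 174 members, by class of SLC family number, with members past the test in red (higher) or blue (lower), others in grey and class medians as black bars. Most grey points lie within 0.5 of 0, and the largest rises sit in the class of lipids, vesicular substrates and organic ions.

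Among the 13 carriers of lipids, vesicular substrates and organic ions, 2 rose and 1 fell. Slc27a2, which encodes a fatty acid transport protein that also activates very long chain fatty acids (GRCm38, as for all positions here, chromosome 2, 126552407 to 126588243), stood at 8.70 and 7.96 CPM in 0 h replicates A and B and at 28.7 and 26.3 CPM in 24 h replicates A and B. Both 24 h libraries lay far above both 0 h libraries, with a mean of 8.33 ± 0.520 CPM before and 27.5 ± 1.71 after (SD, n = 2) and a log2 fold change of 1.72 by edgeR (SE 0.14, adjusted p = 0.00322). The other family 27 members kept, Slc27a1, Slc27a3 and Slc27a4, had log2 fold changes of -0.18, -0.05 and -0.44 and did not pass. That of Slc27a3 was 0.30 with the GC and length trend taken out and 0.30 if 0 h replicate A was dropped (adjusted p of 0.0287 and 0.0017 by edgeR). If 0 h B was dropped, it was -0.34 by edgeR (adjusted p = 1.63e-05), so the direction turned on which 0 h library was kept.

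Slc22a23, an organic ion family member of unassigned substrate (chromosome 13, 34179158 to 34345182), was at 19.7 and 18.2 CPM at 0 h and at 49.9 and 50.2 at 24 h. The groups were far apart, and the log2 fold change was 1.40 (SE 0.12, adjusted p = 0.00364 in edgeR's test). Slc17a9, which loads ATP into vesicles (chromosome 2, 180725263 to 180742280), fell from 26.5 and 23.04 CPM to 12.1 and 11.5, with both 24 h libraries low and a log2 fold change of -1.07 by edgeR (SE 0.14, adjusted p = 0.0101). These 3 genes, and Slc44a3 below, passed the threshold in all 14 refits with another setting or without 1 library. The 10 others ranged from -0.46 to 0.20 on the log2 scale. Slc27a3 and Slc27a4 had the highest levels per length in the class, at a mean of 39.4 and 22.9 TPM (counts per kb of exon scaled to the same sum in every library).

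Promoters are shown for 2 members that rose and 2 that fell, as the sequence before the gene start that a KLF factor would meet if it bound there. They are the 2 highest and the 2 lowest log2 fold changes among called members with a window in the RefSeq table (GRCm38.p6, the assembly mm10 also names) that held no annotated exon. For Slc12a8 and Slc45a3 the most upstream start was taken. KLF factors are known to bind GC-rich sequence, and the letters GGGNGTG, or CACNCCC on the other strand, are in capitals where they occur. Each run is 250 bases, 5′ to 3′ on the gene's strand.
Slc22a23 (chr13:34345219-34345468, minus strand): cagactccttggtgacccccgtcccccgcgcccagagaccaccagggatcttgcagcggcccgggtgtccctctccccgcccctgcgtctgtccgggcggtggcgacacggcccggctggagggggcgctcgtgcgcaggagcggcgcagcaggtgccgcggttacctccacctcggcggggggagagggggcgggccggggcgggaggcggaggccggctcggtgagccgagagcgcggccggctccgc
Slc12a8 (chr16:33517078-33517327, plus strand): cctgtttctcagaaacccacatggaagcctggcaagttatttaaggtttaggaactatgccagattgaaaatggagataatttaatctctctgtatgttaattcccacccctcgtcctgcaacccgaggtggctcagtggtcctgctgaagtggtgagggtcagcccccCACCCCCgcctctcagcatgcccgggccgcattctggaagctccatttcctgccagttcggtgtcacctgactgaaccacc
Slc15a1 (chr14:121505255-121505504, minus strand): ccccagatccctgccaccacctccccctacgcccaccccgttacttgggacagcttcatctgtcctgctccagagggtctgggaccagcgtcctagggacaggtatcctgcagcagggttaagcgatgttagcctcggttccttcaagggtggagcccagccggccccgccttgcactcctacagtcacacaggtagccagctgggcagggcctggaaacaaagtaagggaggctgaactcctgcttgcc
Slc45a3 (chr1:131962665-131962914, plus strand): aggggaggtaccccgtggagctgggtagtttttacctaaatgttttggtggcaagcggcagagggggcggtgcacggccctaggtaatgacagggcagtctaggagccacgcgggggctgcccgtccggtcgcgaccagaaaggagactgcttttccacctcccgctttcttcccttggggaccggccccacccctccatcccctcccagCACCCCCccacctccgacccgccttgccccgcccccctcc
The letters occur once in the Slc12a8 window, which belongs to a gene that rose, and once in the Slc45a3 window, which belongs to a gene that fell. They do not occur in the Slc22a23 and Slc15a1 windows. Of the 174 members, 132 had a promoter in the table, and 59 of these (44.7%) held the letters in at least 1 window, beside 37.1% of the 8451 genes of at least 5 CPM that had one and 28.8% of all 27025 genes in the table. Among called members the letters were in 4 of 10 that rose and 1 of 3 that fell. A match is a run of letters and not a measured binding site.

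Among 15 transporters of nucleosides, vitamins, heme and choline, 2 rose and 1 fell. The choline transporter-like family 44 held changes in both directions. Slc44a3 (chromosome 3, 121459528 to 121532404) was low at 0 h, at 3.44 and 3.99 CPM, and stood at 8.63 and 9.21 at 24 h. The groups did not overlap, with a log2 fold change of 1.26 by edgeR (SE 0.17, adjusted p = 0.0109). It shares 349 exon bases with A530020G20Rik on the other strand, which was at 0.103 to 0.403 CPM, and its counts are uncertain to that extent. Slc44a1, the widely expressed choline transporter of this family (chromosome 4, 53440413 to 53622478), fell from 136.7 and 147.8 CPM to 102.5 and 105.3, a log2 fold change of -0.45 by edgeR (SE 0.10, adjusted p = 0.0459). Slc44a2 and Slc44a4 had log2 fold changes of 0.04 and -0.06 and did not pass.

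Slc29a3, the nucleoside transporter of lysosomes (chromosome 10, 60712072 to 60752794), rose from 39.7 and 38.9 CPM to 61.4 and 62.9, with replicates close together in both groups (log2 fold change 0.66 by edgeR, SE 0.11, adjusted p = 0.0173). The other family 29 members kept, Slc29a1, Slc29a2 and Slc29a4, had log2 fold changes of -0.31, -0.44 and 0.24 and did not pass, and the difference between relatives was not tested. Slc29a1 was at 162.1 and 139.0 CPM at 0 h and 125.9 and 116.9 at 24 h. The thiamine transporter Slc19a2 was at 97.4 and 94.1 CPM at 0 h and 106.5 and 105.7 at 24 h. These 2 had the highest levels per length in the class (mean TPM of 103.6 and 80.5). When 24 h A or 24 h B was left out (values in that order, here and below), Slc29a3 had an adjusted p of 0.217 and 0.281 in edgeR's test and Slc44a1 of 0.524 and 0.532. Slc44a1 also missed the threshold with upper quartile or library size scaling and in limma voom.

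Among 12 transporters of sugars, monocarboxylates and inositol, 1 rose and 1 fell, 8 had positive log2 fold changes and 4 negative. Slc16a6, a monocarboxylate transporter that carries ketone bodies (chromosome 11, 109450855 to 109473598), rose from 24.6 and 25.7 CPM to 45.1 and 41.3. The groups were well apart, with a log2 fold change of 0.78 by edgeR (SE 0.12, adjusted p = 0.0149). It shares 1052 exon bases with Amz2 on the other strand, which stood at 39.8 to 43.2 CPM with a log2 fold change of -0.07, so reads of the 2 genes cannot be told apart there. The other family 16 members kept (Slc16a9, Slc16a10 and Slc16a14) had log2 fold changes of 0.41, 0.30 and 0.36, and none passed. Slc45a3, a proton-coupled sugar transporter (chromosome 1, 131962967 to 131982969), fell from 9.98 and 7.26 CPM to 4.41 and 4.00, a log2 fold change of -1.04 by edgeR (SE 0.20, adjusted p = 0.0318).

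The 2 members of this class with the highest level per length did not pass. The Golgi-associated sugar transporter Slc50a1 was at 29.9 and 26.8 CPM at 0 h and 33.9 and 34.5 at 24 h. The intracellular glucose transporter Slc2a8 was at 47.3 and 29.2 CPM at 0 h and at 27.8 and 24.6 at 24 h. Its groups did not overlap, and the log2 fold change was -0.55 (adjusted p = 0.178 in edgeR's test). That value was -0.16 if 0 h replicate A was dropped and -0.86 if 0 h B was. The Slc2a8 transcript has a GC content of 60.8%, and the part of GC content in these values was not tested. If 24 h A or 24 h B was dropped, Slc16a6 had an adjusted p of 0.197 and 0.0824 in edgeR's test and Slc45a3 of 0.0381 and 0.0945.

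Among 24 members of families 33, 35 and 37, classed as carriers of nucleotide sugars, sugar phosphates and acetyl-CoA, 2 rose and 0 fell. The class goes by family number, and not every member carries these substrates, as with Slc35b1 below. With GC and length offsets 6 rose and 2 fell, in a refit that called 23.7% of all genes tested. Slc33a1, which brings acetyl-CoA into the ER (chromosome 3, 63933507 to 63964768), was at 9.25 and 11.9 CPM at 0 h and 18.7 and 18.4 at 24 h. Both 24 h libraries were higher, with a log2 fold change of 0.81 by edgeR (SE 0.16, adjusted p = 0.032). It shares 1136 exon bases with Gm26850 on the other strand, which was at 0.0593 to 0.449 CPM. Slc37a2, a sugar phosphate exchanger of the ER (chromosome 9, 37227585 to 37255738), rose from 11.2 and 10.3 CPM to 17.4 and 17.2, a log2 fold change of 0.68 by edgeR (SE 0.14, adjusted p = 0.032). Its relatives Slc37a1, Slc37a3 and Slc37a4 had log2 fold changes of -0.24, 0.25 and -0.005 and did not pass.

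Of the 19 family 35 members, which include the nucleotide sugar carriers, 0 passed edgeR's test, with log2 fold changes from -0.45 to 0.63. Slc35f2 had the highest level per length among them (mean 140.2 TPM) and stood at 111.3 and 112.1 CPM at 0 h and 138.3 and 135.9 at 24 h. Its groups did not overlap, and edgeR gave an adjusted p of 0.118. Slc35b1, which exchanges ATP and ADP across the ER membrane, was at 43.4 and 47.3 CPM and at 46.3 and 43.2 CPM, with groups that overlapped. When 24 h A or 24 h B was left out, Slc33a1 had an adjusted p of 0.153 and 0.14 in edgeR's test, and Slc37a2 of 0.303 and 0.296.

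Among 26 carriers of inorganic ions, 2 rose and 1 fell. Slc12a8, of the cation chloride cotransporter family (chromosome 16, 33517328 to 33664135), rose from 10.5 and 8.46 CPM to 17.1 and 19.4. Both 24 h libraries were higher, with a log2 fold change of 0.94 by edgeR (SE 0.16, adjusted p = 0.0224). The 5 other family 12 members kept, among them the potassium chloride cotransporters Slc12a4 and Slc12a7 (-0.06 and -0.24), did not pass. Slc4a8, which exchanges sodium and bicarbonate for chloride (chromosome 15, 100761747 to 100823968), rose from 37.9 and 34.4 CPM to 52.5 and 51.7, a log2 fold change of 0.53 by edgeR (SE 0.11, adjusted p = 0.0399).

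Slc8b1, the sodium calcium exchanger of the inner mitochondrial membrane (chromosome 5, 120511168 to 120534024), fell from 52.7 and 39.5 CPM to 28.4 and 28.7. Both 0 h libraries were above both 24 h libraries, but they lay apart from each other, and their means were 46.1 ± 9.30 and 28.5 ± 0.198 CPM (SD, n = 2), with a log2 fold change of -0.69 by edgeR (SE 0.16, adjusted p = 0.0459). Its log2 fold change was -0.47 if 0 h replicate A was dropped and -0.89 if 0 h B was, and it missed the threshold in limma voom. The phosphate importer Slc20a1, with the highest level per length in the class (mean 100.2 TPM), was at 198.1 and 198.2 CPM at 0 h and at 167.7 and 168.3 at 24 h. Those groups did not overlap, but the log2 fold change of -0.24 did not pass (adjusted p = 0.172 in edgeR's test). If 24 h A or 24 h B was dropped, the adjusted p in edgeR's test was 0.0282 and 0.119 for Slc12a8, 0.461 and 0.465 for Slc4a8, and 0.218 and 0.234 for Slc8b1.

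Among 30 transporters of amino acids and peptides, 0 rose and 2 fell. Slc15a1, the proton-coupled uptake transporter for small peptides (chromosome 14, 121459621 to 121505252), was at 20.8 and 20.3 CPM at 0 h and at 12.1 and 10.7 at 24 h. Replicates lay close together and the groups apart, with a mean of 20.5 ± 0.346 CPM before and 11.4 ± 1.03 after (SD, n = 2) and a log2 fold change of -0.85 by edgeR (SE 0.14, adjusted p = 0.0183). Slc6a6, the taurine transporter (chromosome 6, 91684053 to 91759066), fell from 304.5 and 262.6 CPM to 195.3 and 192.6, a log2 fold change of -0.55 by edgeR (SE 0.11, adjusted p = 0.0328). It had the highest CPM of the 17 called members. When 24 h A or 24 h B was left out, Slc15a1 had an adjusted p of 0.0652 and 0.222 in edgeR's test, and Slc6a6 of 0.32 and 0.398.

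The heavy chain Slc3a2 and its light chain Slc7a5, which together import large neutral amino acids, had the highest levels per length in this class (mean TPM of 417.0 and 361.1). Slc3a2 was at 537.1 and 446.1 CPM at 0 h and 476.5 and 466.3 at 24 h, and Slc7a5 at 517.0 and 391.3 CPM and then 427.2 and 417.1. For both genes the 24 h libraries lay between the 0 h libraries. Their log2 fold changes of -0.06 and -0.11 became 0.02 and 0.07 with GC and length offsets. Of 11 transporters listed as targets of ATF4, the factor of the amino acid response, 10 were among the members and 0 passed edgeR's test, with 2 at an unadjusted p under 0.05 (Slc1a4 and Slc38a1, chosen after their values were seen), and the log2 fold changes ran from -0.25 to 0.32. Over all genes tested the matching shares were 6.8% past the test and 25.8% before adjustment. DESeq2's Wald test also called 0 and limma voom 0, while GC and length offsets gave 1 higher (Slc1a4) and 1 lower (Slc7a1). When 0 h replicate A was left out, 4 rose and 1 fell, and when 0 h B was, 3 rose and 6 fell, in refits that called 32.2% and 50.2% of all genes tested. The eleventh, Slc7a11, lay under the level limit at 1.91 CPM.

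Among 32 family 25 carriers, nearly all of the inner mitochondrial membrane, 1 rose and 0 fell. With GC and length offsets 5 rose and 5 fell, in a refit that called 23.7% of all genes tested. Slc25a17, which is the carrier of coenzyme A and other cofactors in peroxisomes (chromosome 15, 81318911 to 81360812), rose from 55.9 and 63.5 CPM to 89.2 and 87.0. Both 24 h libraries were higher, with a log2 fold change of 0.56 by edgeR (SE 0.11, adjusted p = 0.0322). Slc25a39, which imports glutathione into mitochondria, had the highest level per length of all 174 members (mean 471.9 TPM). Slc25a39 was at 599.8 and 394.1 CPM at 0 h and at 359.2 and 352.3 at 24 h. Its groups did not overlap, but the log2 fold change of -0.48 did not pass (adjusted p = 0.16 in edgeR's test). If 0 h replicate A was dropped, the log2 fold change was -0.15. The ADP and ATP carrier Slc25a5 (mean 305.6 TPM) stayed between 159.5 and 169.9 CPM in all 4 libraries. The 31 carriers that did not pass ranged from -0.56 to 0.51 on the log2 scale. If 24 h A or 24 h B was dropped, Slc25a17 had an adjusted p of 0.396 and 0.365 in edgeR's test.

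Among 22 metal transporters, 1 rose and 0 fell. With GC and length offsets 3 rose and 6 fell, in a refit that called 23.7% of all genes tested. Slc30a2, which moves zinc into vesicles (chromosome 4, 134343181 to 134354484), rose from 23.7 and 21.9 CPM to 32.8 and 32.5. The groups did not overlap, and the log2 fold change of 0.52 (SE 0.12) had an adjusted p of 0.0489 in edgeR's test, close to the threshold. It missed the threshold in limma voom, and with 24 h A or 24 h B left out the adjusted p was 0.494 and 0.525 in edgeR's test. The other 6 members of family 30, mostly zinc exporters, and all 9 of family 39, mostly zinc importers, did not pass. The zinc importer Slc39a1 was at 64.6 and 65.5 CPM at 0 h and 55.0 and 57.0 at 24 h, and the copper importer Slc31a1 at 106.6 and 121.9 CPM and then 102.5 and 104.8. The magnesium transporter family member Slc41a3, chosen after its values were seen, had the lowest log2 fold change in this class (-0.91, adjusted p = 0.0532 in edgeR's test).

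**Figure D4:**
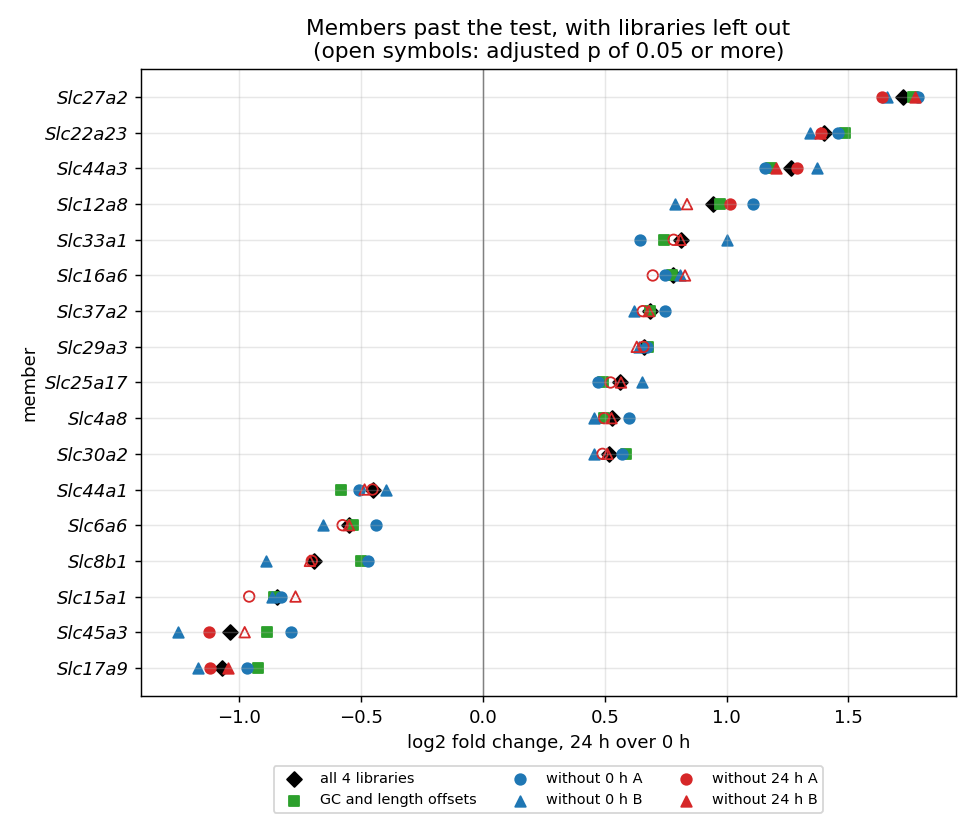
Log2 fold change (24 h over 0 h) of the 17 called members with all 4 libraries (diamonds), with GC and length offsets (squares) and without each library in turn (circles and triangles). Filled symbols are past the threshold, every value keeps its side of 0, and every open symbol is a fit without a 24 h library.

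Summed over all 174 members, the level was 7615 and 6738 TPM at 0 h and 7058 and 6852 at 24 h, so that the 24 h libraries lay between the 0 h libraries. The 10 members of highest level held 40.7% of this sum. The 22 metal transporters summed to 624.4 and 611.7 TPM at 0 h and to 590.6 and 583.0 at 24 h, without overlap. In every other class the summed groups overlapped. Among all genes tested, 58.8% had groups that did not overlap. The mitochondrial carriers summed to 2597 and 2247 TPM at 0 h and 2251 and 2195 at 24 h, and the amino acid transporters to 2187 and 1920 and then 2054 and 2004.

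Carriers with other symbols and subunits of carriers were followed in a second list of 69 symbols, of which 59 were tested. Of these, 5 rose, 1 fell and 53 did not pass (10.2% called, beside 6.8% of all genes tested). Emb, which encodes embigin, an accessory protein that takes monocarboxylate transporters to the cell surface, was at 40.3 and 49.4 CPM at 0 h and at 146.6 and 150.7 at 24 h. Both 24 h libraries were far above both 0 h libraries, with a log2 fold change of 1.73 by edgeR (SE 0.13, adjusted p = 0.00322). Basigin (Bsg), the other such accessory protein and chosen after its values were seen, was at 617.2 and 567.8 CPM and then 487.2 and 501.0 (log2 fold change -0.26, adjusted p = 0.148 in edgeR's test).

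Pqlc3, of the lysosomal transporter family with PQ loops, rose from 32.99 and 38.7 CPM to 58.2 and 58.8, and Svop, a relative of synaptic vesicle transporters, from 2.00 and 1.75 CPM to 4.41 and 3.80, with log2 fold changes of 0.71 and 1.13. Svop shares exon bases with the opposite-strand gene Usp30, which leaves its counts uncertain. The mitochondrial sideroflexin Sfxn3 fell from 41.04 and 40.9 CPM to 28.6 and 28.04, a log2 fold change of -0.53 by edgeR (adjusted p = 0.0374). The groups did not overlap for any of these 3 genes. When 24 h A or 24 h B was left out, Pqlc3 had an adjusted p of 0.182 and 0.212 in edgeR's test and Sfxn3 of 0.398 and 0.509, and Svop had 0.124 without 24 h A. Emb passed in all 14 refits.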

How the data were processed

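Counts per Ensembl gene were used as deposited by the authors, who made them from single reads of stranded mRNA libraries per the labels' protocols. TopHat2, HTSeq, DESeq and the build mm10 are named per the submitters' processing notes, with no versions or roles. Which annotation was counted, and with what strand setting, is not given in the sources used here. For overlapping genes, reads therefore cannot be told apart, and 25 members share exons with another gene that holds at least 1% of their counts.

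GENCODE M21 (GRCm38) gave symbols, coordinates, exon lengths and GC content, with 563 of 45706 identifiers unmatched (0.107% of counts). Genes were filtered with filterByExpr (minimum count 10, minimum total 15), scaled by TMM and tested with edgeR 4.0.16's quasi-likelihood test in R 4.3.3 (2-sided, Benjamini-Hochberg over all genes), which was tested on simulated data. CPM used TMM totals, and TPM used the exon length of each gene. The limit that a count of 0 allows is 3 counts, 0.0572 to 0.0652 CPM by library, for counting error only. P-values measure the spread between 2 samples a group, which the series' design text calls biological replicates. The genes and lists were chosen with earlier results of these data known. Named are called members whose groups do not overlap, the 2 of highest level per length in each class, called genes of the second list (at most 3 a direction in order of p) and the nearest to the limit on each side. Relatives of called members in the same family were named after their values were seen. A gene that this rule names is not reported here. Alternatives covered scaling, filters, DESeq2 1.42.0, limma 3.58.1 (voom), a replicate block, GC and length offsets, the level limit and each library left out. Figures were drawn with matplotlib 3.10.9.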

Additional observations from a re-analysis of the deposited data

How the results depend on the processing

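The 17 called members kept their direction in all 14 refits. The counts of 11 higher and 6 lower members became 15 and 15 with no filter on low counts, 16 and 12 in DESeq2's Wald test, 39 and 23 with GC and length offsets, and 43 and 31 with those offsets and the replicate block. The shares of members called in these refits were 17.2%, 16.1%, 35.6% and 42.5%, in that order. Over all genes tested they were 9.71%, 11%, 23.7% and 30.6%, so calls grew there too. With the replicate block alone the member counts were 21 and 18, with all 17 among them. That refit called 22.4% of the members, beside 18.1% of all genes tested. The letters mark no shared clone in the labels, and A minus B at 0 h correlated with A minus B at 24 h over genes (r = 0.243). Without 1 library the count ran from 3 to 54 higher and from 2 to 66 lower, and 52 members were called in 1 direction in all of 3 refits (the offsets, and each 0 h library left out). In 5 members leaving out 0 h A and leaving out 0 h B gave calls in opposite directions. The counts of 52 and 5 were not made over all genes tested, so their background is unknown. The share of member calls that were higher was 64.7%, and was 53.8% with the replicate block and 72.2% with library size scaling. Over all genes called the same shares were 61.1%, 51% and 69.1%, so both sets of shares moved in the same direction in these refits. With no filter on low counts, 15 members rose and 15 fell, and 47.5% of all genes called rose. With GC and length offsets the share was 62.9% of member calls and 53.1% of all genes called, so the member share moved less there. The other scalings, limma voom, a filter of 1 CPM in 2 samples and limits of 10 or 1 CPM gave counts within 1.5 times. Among members not called, the log2 fold change turned positive with GC and length offsets, with these and the replicate block, and when 0 h A was left out: Slc3a2 (0.0166, 0.0177 and 0.0783), Slc7a5 (0.0686, 0.0696 and 0.108) and Slc27a3 (0.302, 0.304 and 0.297). It was also positive for Slc25a5 (0.0013) and Slc27a3 (0.007) with library size scaling, and for Slc35b1 with upper quartile (0.0244) and library size scaling (0.0381), and when 0 h B (0.0405) or 24 h B (0.0174) was left out. Over the libraries left out the lowest values were -0.192 for Slc3a2, -0.297 for Slc7a5, -0.0889 for Slc35b1 and -0.341 for Slc27a3. The causes were not tested. Precision is limited by 2 libraries a group.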

Other observations

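Under the level limit of 5 CPM, 94 further solute carrier symbols were tested, of which 3 rose and 2 fell in edgeR's test (5.32%, beside 6.8% of all genes tested). They are named here after their values were seen. Slc26a9, an anion transporter, rose from 1.52 and 1.69 CPM at 0 h to 4.71 and 4.25 at 24 h, and Slc41a2, of the magnesium transporter family, from 1.68 and 1.19 CPM to 4.39 and 4.17. Slc26a5, which encodes the motor protein prestin of outer hair cells, went from 0.0988 and 0.0823 CPM to 0.765 and 0.769. The riboflavin transporter Slc52a3 fell from 7.61 and 5.82 CPM to 2.19 and 2.29, and the neutral amino acid transporter Slc6a15 from 3.28 and 4.03 CPM to 1.09 and 1.24. In each of these 5 genes the groups did not overlap, and each passed in every refit that tested it. Of the 365 symbols that matched the pattern, 32 had 0 counts in every library.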
